A study of Caenorhabditis elegans with 10 samples.

Results

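The regions described here are the accessible chromatin peaks of the centre of *C. elegans* chromosome III. A peak belonged to the centre when its summit lay on chromosome III between 3.72 and 10.34 Mb (ce10), with the stretch from 7.45 to 7.90 Mb left out. By this rule 1991 of 27694 early embryo peaks, 947 of 13040 larval stage 3 (L3) peaks and 1066 of 15159 young adult peaks were members, which is 4004 of 55893 peaks in all. The chromosome III arms, which served for comparison, held 1945, 936 and 1175 peaks in the same lists. The rule used position alone, so the strength, width and stage of a peak played no part in it.

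ATAC-seq, in which the transposase Tn5 cuts open DNA and leaves sequencing adapters in it, was performed on nuclei of whole worms of the strain N2 grown at 20°C. Early embryos were taken from bleached egg-laying adults, L3 worms 36 h and young adults 57 h after the egg lay, with 3 libraries per stage, and 1 input library came from 10 ng of genomic DNA. For each stage the authors deposited 1 list of peaks from the pooled libraries, so no spread between replicates exists for any value below and no test of a stage difference was possible. By the study's sequencing summary the early embryo was sequenced deepest and L3 least, so a site without an L3 or young adult peak may have been too weak to be called there. Each list mixes all tissues of the animal, so fewer cells of a type and less open chromatin per cell cannot be told apart. The 95% intervals cover counting error only and treat peaks as independent, although neighbouring peaks are not.

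*C. elegans* autosomes have a gene-rich central region in which crossovers are rare, flanked by arms with more repeats, more crossovers and more H3K9-methylated heterochromatin attached to the nuclear lamina. Broadly expressed and essential genes lie mostly in the centres. Open chromatin in such a region marks promoters and enhancers, the sites at which transcription factors displace nucleosomes.

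Of the members, the peaks at 2 regions were cloned by the study for reporter lines, one near hlh-11, which encodes a basic helix-loop-helix transcription factor, and one near gei-13. The hlh-11 region lay from 9618858 to 9619810 and the gei-13 region from 9646331 to 9646662 on chromosome III, 26.5 kb apart. These spans are those of the L3 peaks there, and the cloned fragments also took in flanking sequence. The worm-specific 3′ parts of the cloning primers are shown, without their vector tails, because they are the designed sequences that tie these members to an experiment. Each is written 5′ to 3′.
hlh-11 forward: tcaagcacaccaggcaatta
hlh-11 reverse: tctactcccgcaatttttgg
gei-13 forward: tcaaatgccgtagaaaaagaaa
gei-13 reverse: tccgctttgtggacatacaa
The primers had 20 to 22 worm bases, with a GC content of 31.8% in the gei-13 forward primer and 45.0% in each of the others. Their own positions were not looked up, since no genome was used here.

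The centre carried more peaks per Mb than the left arm in every list, but about as many as the right arm. Early embryo density was 322.7 peaks per Mb in the centre, against 234.9 in the left arm and 312.0 in the right arm. In L3 it was 153.5 in the centre, 113.4 in the left arm and 149.7 in the right arm. In young adults it was 172.8 in the centre, 144.4 in the left arm and 185.9 in the right arm. The centre was thus the densest of the 3 stretches in the early embryo and L3 and lay between the arms in young adults.

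Set against both arms together, the centre had 1.19 times their density among early embryo peaks (95% interval 1.11 to 1.26), 1.17 times in L3 (1.07 to 1.29) and 1.05 times in young adults (0.967 to 1.14). Against the left arm alone the ratios were 1.37, 1.35 and 1.2, and none of their intervals reached 1. Against the right arm alone they were 1.03 (0.960 to 1.12), 1.03 (0.920 to 1.14) and 0.930 (0.842 to 1.03), and each interval held 1. The early embryo ratio was smaller without the weaker peaks of its long list. Among the 13040 early embryo peaks with the highest −log10 q, as many as L3 had in all, the ratio was 1.04 (0.947 to 1.14), with 869 centre peaks left.

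**Figure D1:**
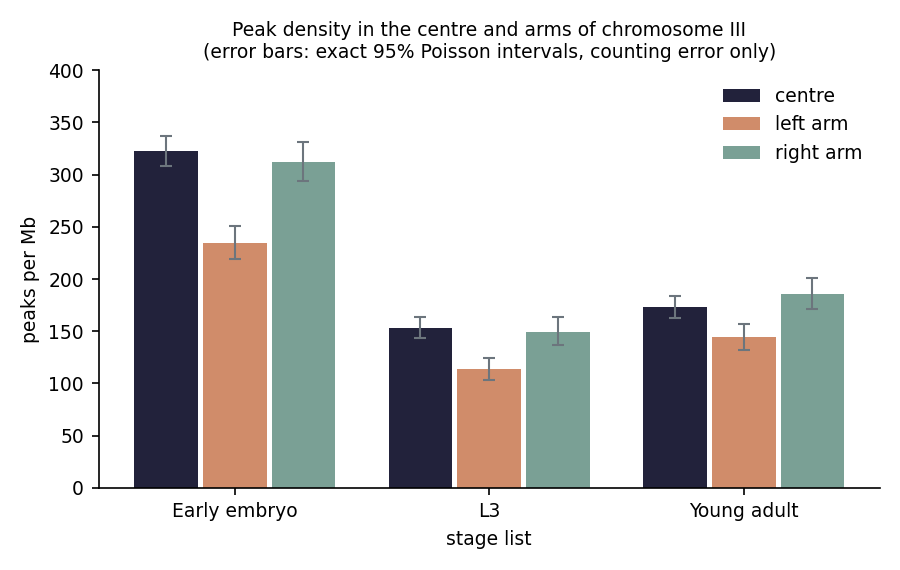
Peaks per Mb in the centre, the left arm and the right arm of chromosome III in each stage list, with bars for the density and error bars for exact 95% Poisson intervals. The left arm is lowest in all 3 lists, and the centre and the right arm have overlapping intervals.

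The share of base pairs under peaks was likewise lowest in the left arm. Peaks covered 8.29% of the base pairs of the centre in the early embryo, against 6.19% of the left arm and 8.29% of the right arm. In L3 they covered 4.84% of the centre, 3.42% of the left arm and 4.69% of the right arm. In young adults they covered 5.36% of the centre, 4.40% of the left arm and 5.94% of the right arm. The left arm held a sparse stretch between 1.0 and 2.5 Mb. There the early embryo list had 120.0 to 188.0 peaks per Mb in 500 kb blocks, while the 0.5 to 1.0 Mb block beside it had 408.0.

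The 2 stretches of the centre on both sides of the left-out window were much alike. The stretch before the window had 333.5, 152.3 and 175.6 peaks per Mb in the 3 lists. The stretch after it had 306.1, 155.3 and 168.4, and the intervals of the 2 stretches overlapped in each list. The left-out window itself, 0.45 Mb long, held 153 early embryo, 62 L3 and 63 young adult peaks.

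Along the centre, summits were counted in the 60 blocks of 100 kb that lie wholly inside it. A block held 12 to 51 early embryo summits (median 31), 2 to 38 L3 summits (median 15) and 4 to 40 young adult summits (median 18). Blocks varied less in the centre than in the left arm. The SD of the early embryo counts was 27.1% of their mean in the centre, 51.1% in the left arm and 29.9% in the right arm. For L3 this value was 43.9% in the centre, between 54.9% in the left arm and 29.9% in the right arm, and for young adults it was 39.1%, between 59.5% and 29.9%. The left arm was therefore the most uneven stretch in every list, and the right arm was the most even in L3 and young adults.

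**Figure D2:**
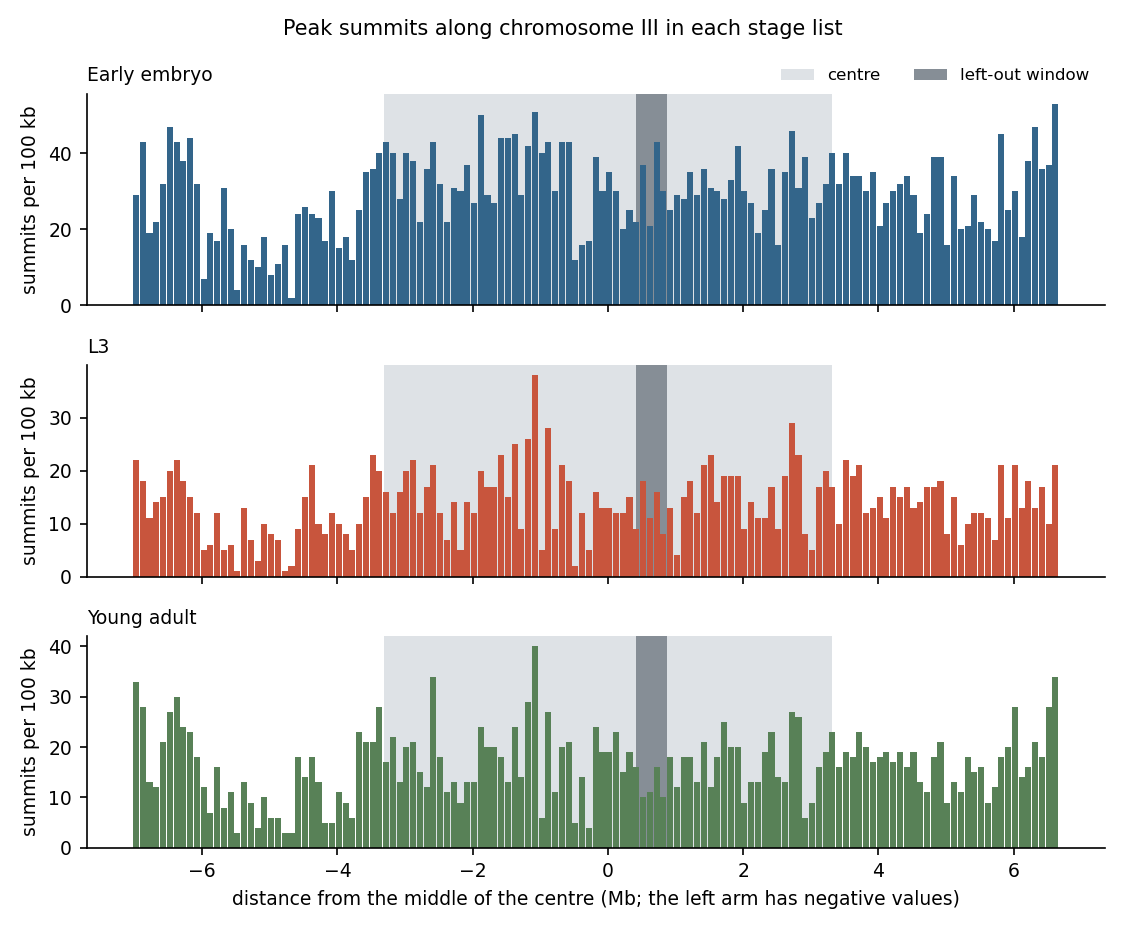
Peak summits per 100 kb block along chromosome III in each stage list, against distance from the middle of the centre in Mb, with the centre shaded light grey and the left-out window dark grey. The tallest L3 bar, with 38 summits, stands in the centre at the block that also has 40 young adult summits. The low bars of the left arm are the stretch between 1.0 and 2.5 Mb. The last, incomplete block of the right arm is not drawn.

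The densest block of the centre lay at 5.9 to 6.0 Mb, with 51 early embryo, 38 L3 and 40 young adult summits. Peaks covered 13.2%, 11.5% and 12.3% of its base pairs, and 25, 25 and 24 of its peaks had counterparts in both other lists. Its L3 and young adult peaks were seldom strong ones. In all 5 early embryo, 1 L3 and 1 young adult peak of the block were among the strongest 10% of their lists, and the highest fold enrichments were 6.51, 5.65 and 5.38. Fold enrichment, as deposited, sets the signal at a summit over the background around it, and folds of different lists, which differ in depth, are given side by side only as descriptions.

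The next blocks in number lay at 9.7 to 9.8 Mb, with 46, 29 and 27 summits, and at 4.4 to 4.5 Mb, with 43, 21 and 34, a total of 98 that the block at 6.1 to 6.2 Mb, with 43, 28 and 27, also reached. The block at 9.7 to 9.8 Mb had strong peaks as well, with 9 early embryo, 5 L3 and 5 young adult peaks in the strongest 10%. The sparsest block, at 6.5 to 6.6 Mb, held 12 early embryo, 2 L3 and 5 young adult summits, and that at 6.7 to 6.8 Mb held 17, 5 and 4. Rich and poor blocks thus lay within 1 Mb of each other. Other blocks were poor in the later lists alone, such as 6.0 to 6.1 Mb, with 40 early embryo, 5 L3 and 6 young adult summits, and 9.9 to 10.0 Mb, with 39, 8 and 6, which were chosen after their values were seen.

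The longest early embryo stretch of the centre free of peaks was 40.7 kb, from 6752813 to 6793473, and no L3 or young adult summit lay in it. The longest free of L3 peaks was 79.2 kb, from 4796355 to 4875594, and it held 15 early embryo and 2 young adult summits. The longest free of young adult peaks was 71.3 kb, from 8557090 to 8628385, with 20 early embryo and 4 L3 summits. In the left arm the longest empty stretches were 118.8, 161.3 and 107.5 kb in the 3 lists, and in the right arm 45.2, 68.2 and 50.8 kb.

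Early embryo peaks of the centre had fewer very close neighbours than those of either arm and fewer long gaps than those of the left arm. The median distance between neighbouring summits was 1367 bp in the centre, 1262 bp in the left arm and 1144.5 bp in the right arm for the early embryo. It was 2715, 2652 and 2771 bp for L3, and 2538, 2633 and 1943 bp for young adults. As ratios of the centre to both arms these medians gave 1.14 (0.990 to 1.33), 1.01 (0.786 to 1.31) and 1.15 (0.870 to 1.43), so that none was told apart from 1.

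The 2 ends of the distribution differed more than its middle. Distances under 500 bp made up 25.4% of those in the centre and 30.2% of those in the arms in the early embryo, a difference of −4.77 percentage points (−7.56 to −1.97). Distances over 20 kb made up 1.06% in the centre and 2.99% in the arms, a difference of −1.93 points (−2.86 to −1.06). In L3 the shares over 20 kb were 7.62% and 10.2%, with an interval of the difference, −5.15 to 0.027 points, that just took in 0. In young adults they were 6.86% and 7.16%. Against the right arm alone the differences over 20 kb were −0.81 points in the early embryo (−1.88 to 0.045), −0.96 in L3 (−4.10 to 1.87) and 0.90 in young adults (−1.63 to 3.21), none told apart from 0. The SD of the distances over their mean was lowest in the centre in every list, at 1.39, 1.4 and 1.44, against 1.98, 1.84 and 1.70 in the left arm and 1.57, 1.53 and 1.51 in the right arm.

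**Figure D3:**
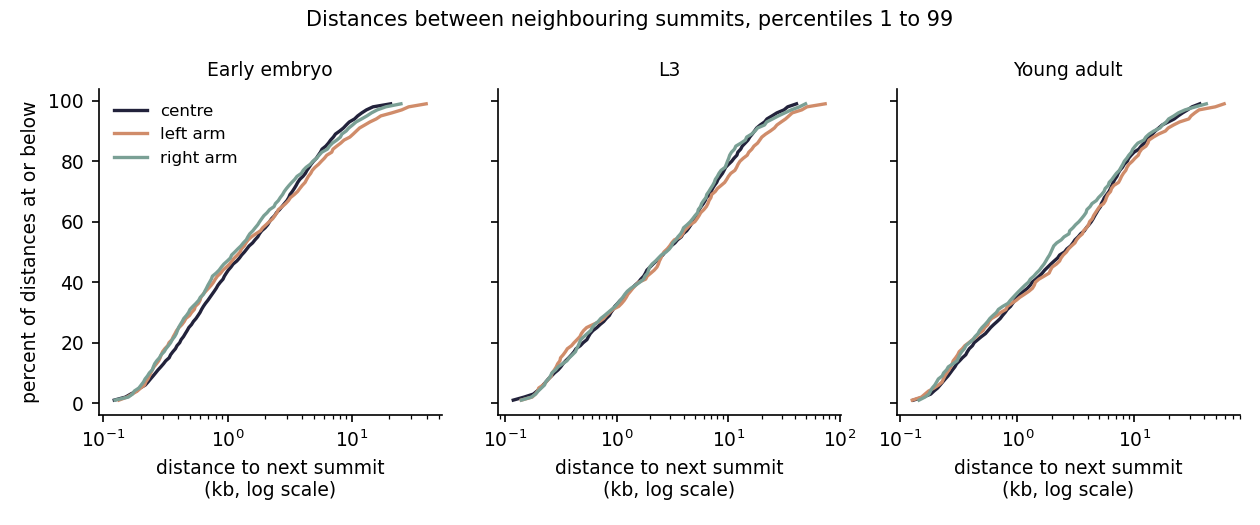
Percentiles 1 to 99 of the distance between neighbouring summits, in kb on a log axis, for the centre, the left arm and the right arm in each stage list. In the early embryo the centre's line lies right of both arms at distances of about 0.5 kb and left of the left arm's at long ones.

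Some close neighbours were peaks that touch, which the authors' division of broad peaks between summits produces. Among early embryo peaks 10.7% of centre peaks began where the peak before them ended, against 14.2% in the left arm and 15.3% in the right arm. In L3 the shares were 12.6%, 12.6% and 15.4%, and in young adults 15.2%, 17.5% and 17.7%. Joining such peaks left 1778, 828 and 904 centre intervals in the 3 lists. With them joined, the early embryo ratio of median distances, centre over arms, was 1.03 (0.909 to 1.17), against 1.14 without joining. The share of distances under 500 bp was not recomputed after joining, so how much of its difference comes from touching peaks was not tested.

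A peak had a counterpart in another list when the shared base pairs made up 0.5 or more of either peak. Of 1991 early embryo peaks in the centre 1019, or 51.2%, had no counterpart in another stage, where 50.9% of the whole list had none. In L3 these were 99 of 947 centre peaks, 10.5%, against 10.9% of the whole list, and in young adults 185 of 1066, 17.4%, against 17.3%. Counterparts in both other stages were found for 581 early embryo peaks (29.2%, as in 29.2% of the whole list), 560 L3 peaks (59.1% against 60.0%) and 545 young adult peaks (51.1% against 50.9%). In its make-up by stage the centre was thus close to the genome as a whole.

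In the early embryo it differed from the arms of its own chromosome, whose share without a counterpart lay below the 50.9% of the whole list. There 51.2% of centre peaks and 45.9% of arm peaks lacked a counterpart, a difference of 5.32 percentage points (2.20 to 8.43), with 46.8% in the left arm and 45.1% in the right arm. The arms had more early embryo peaks with a young adult counterpart. The shares were 40.2% in the centre and 45.8% in the arms, a difference of −5.63 points (−8.71 to −2.54), while for L3 counterparts the shares were 37.8% and 39.6%, −1.77 points apart (−4.81 to 1.27). In L3 the shares without a counterpart were 10.5% in the centre and 8.65% in the arms, and in young adults 17.4% and 17.1%, and neither difference was told apart from 0. With lists cut to 13040 peaks by −log10 q, the difference was 2.50 points in the early embryo (−1.85 to 6.85), which takes in 0, and 4.33 points in L3 (0.70 to 7.95), which does not.

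**Figure D4:**
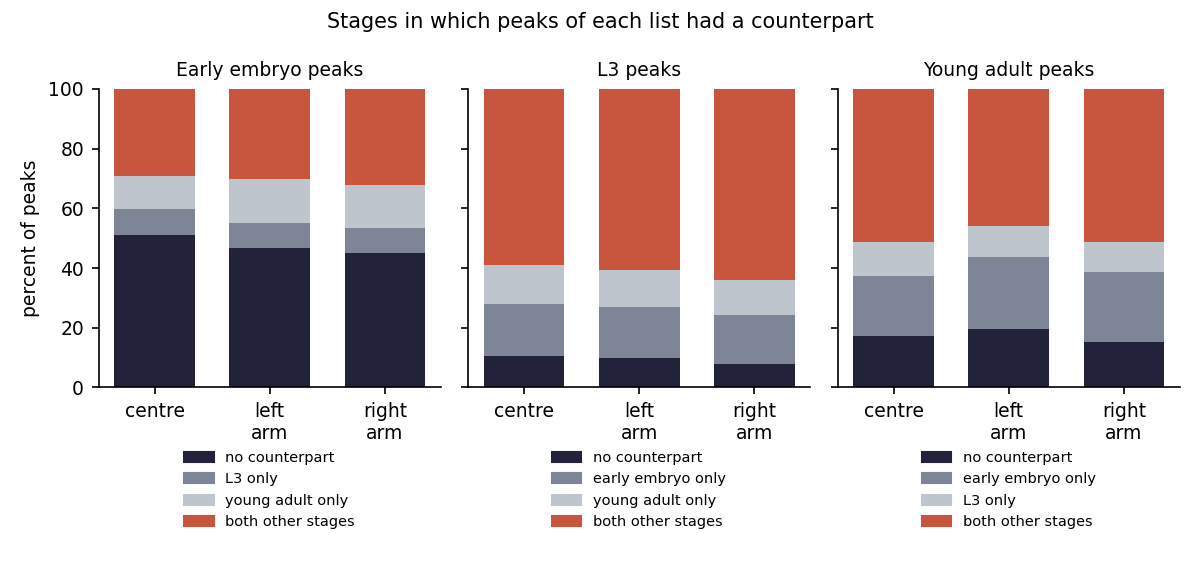
Percent of the peaks of each stage list with no counterpart, a counterpart in 1 other stage only, or counterparts in both other stages, for the centre, the left arm and the right arm of chromosome III. The early embryo bars have the largest share without a counterpart, 51.2% in the centre, and the L3 bars the smallest, 10.5%.

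Peaks linked by these overlaps were gathered into regions, of which the centre had 2316, or 375.4 per Mb, and the arms 2265, or 316.7 per Mb. Of the centre regions 1019 were open in the early embryo alone, 533 in all 3 stages, 207 in the early embryo and young adults, 185 in young adults alone, 160 in the early embryo and L3, 113 in L3 and young adults, and 99 in L3 alone. Per Mb, regions of the early embryo alone numbered 165.2 in the centre, 109.9 in the left arm and 140.7 in the right arm. Regions of all 3 stages numbered 86.4 per Mb in the centre, 66.4 in the left arm and 92.3 in the right arm. Regions of the early embryo and young adults numbered 33.5 per Mb in the centre, near the 32.5 of the left arm and below the 42.8 of the right arm.

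Peaks present in all stages were stronger and wider than those of a single stage, in the centre as in the arms. This is partly built into the definition, since a weak peak is less likely to be called in every list. A wide peak also has more chance to overlap a counterpart. How much of the difference, or of the rarity of strong single-stage peaks, comes from this was not tested. Among early embryo peaks their median fold enrichment was 2.63 in the centre, against 1.91 for centre peaks without a counterpart, and their median widths were 284 and 211 bp. In L3 the median folds were 3.85 and 2.53 and the widths 313.5 and 234 bp. In young adults the folds were 3.47 and 2.25 and the widths 321 and 235 bp. Strong peaks of a single stage were rare in the centre, with 15 early embryo peaks, no L3 peak and no young adult peak among the strongest 10% of their lists, out of 1019, 99 and 185. They were rare in the arms too, with 20 of 892, 0 of 81 and 2 of 201.

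Peaks without a counterpart were not all isolated. Of the 1019 such early embryo peaks of the centre, 314 (30.8%) lay within 1 kb of a summit of another list, compared with 337 of 892 (37.8%) in the arms. Their median distance to the nearest summit of another stage was 2190 bp in the centre and 1443.5 bp in the arms. For L3, 54 of 99 in the centre and 45 of 81 in the arms lay within 1 kb, and for young adults 117 of 185 and 113 of 201.

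Each list was ranked by −log10 q, from 1 for the strongest peak, and the rank was divided by the length of the list, so that a low percentile means a strong peak. Centre peaks ranked lower than arm peaks in the early embryo and, against both arms together, higher in L3. Their median percentile in the early embryo was 52.8, against 47.1 in the arms, a difference of 5.71 points (2.56 to 8.82). In L3 it was 45.5, against 51.3 in the arms, a difference of −5.79 points (−10.3 to −1.15). In young adults it was 47.1 against 47.5.

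Against the right arm alone the L3 difference was −3.43 points (−8.81 to 3.09). Both values also depended on how strength was scaled. Among the 13040 strongest early embryo peaks the difference was −2.55 points (−6.68 to 2.49). With L3 peaks ranked by fold instead, it was −0.29 points (−5.37 to 4.12). At the top of the lists, the strongest 10% took in 176 early embryo, 98 L3 and 102 young adult peaks of the centre, or 8.84%, 10.3% and 9.57% of them. The shares in the arms were 9.41%, 12.4% and 11.6%, and the interval of each difference held 0.

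Early embryo peaks had a median width of 234 bp in the centre and 243 bp in the arms. For L3 peaks it was 290 and 283 bp, and for young adult peaks 287 and 284 bp. The differences were −9.0 bp (−16.2 to −3.17), 7.0 bp (−2.22 to 15.6) and 3.0 bp (−7.82 to 11.5). The early embryo difference was 1.0 bp (−14.7 to 15.1) among the 13040 strongest peaks. Wider peaks had higher folds, with Spearman's rho of 0.48, 0.50 and 0.47 across the 1991, 947 and 1066 centre peaks, and of 0.45, 0.54 and 0.45 in the arms.

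Sites open throughout development allowed a comparison of the same regions in the 3 lists. Of the 533 centre regions open in all stages, 455 (85.4%) had exactly 1 peak in each list, as did 496 of 564 (87.9%) in the arms. Their summits lay close together, within the limit that overlap sets. The early embryo and L3 summits of a centre region were a median of 10 bp apart, L3 and young adult summits 7 bp, and 96.9% of the L3 and young adult summits lay within 50 bp of each other. Folds of these 455 regions were related between lists with a Spearman's rho of 0.57 between early embryo and L3, 0.83 between L3 and young adult and 0.56 between early embryo and young adult, values close to those of the arms (0.53, 0.82 and 0.53). The remaining 78 were cases in which at least 1 list held several peaks, up to 3.

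Among these always-open regions the centre and the arms differed in how their ranks changed from L3 to the young adult. The median rank percentile of the centre regions was 22.7 among early embryo peaks, against 22.3 in the arms. By L3 it was 30.1, against 37.2 in the arms, and by young adulthood 30.2, against 26.6. Of the centre regions 251 of 455 (55.2%) ranked higher in the young adult list than in the L3 list, against 343 of 496 (69.2%) in the arms. The difference was −14.0 percentage points (−20.0 to −7.83), and it was −15.0 points against the left arm (70.2%) and −13.2 points against the right arm (68.3%).

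The folds gave the same picture with a smaller size. From L3 to young adult the median log2 change in fold was −0.11 in the centre (−0.14 to −0.07) and −0.01 in the arms (−0.05 to 0.03). Ranked by fold, the share higher in young adults was 57.8% in the centre and 66.3% in the arms, a difference of −8.53 points (−14.6 to −2.36). From the early embryo to L3 this share showed no such gap, at 31.4% of centre regions and 30.6% of arm regions (0.78 points, −5.08 to 6.66). It counts rises only, and the medians did part at this step, to percentiles of 30.1 and 37.2 in L3. The median log2 change in fold was 0.44 in the centre (0.37 to 0.52) and 0.34 in the arms (0.27 to 0.45). The share differed by 6.66 points from the left arm (−0.72 to 13.5) and −3.82 from the right arm (−10.9 to 3.13). Nor was a gap in the share seen from the early embryo to young adults, at 40.2% and 40.3% (−0.10 points, −6.31 to 6.12).

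**Figure D5:**
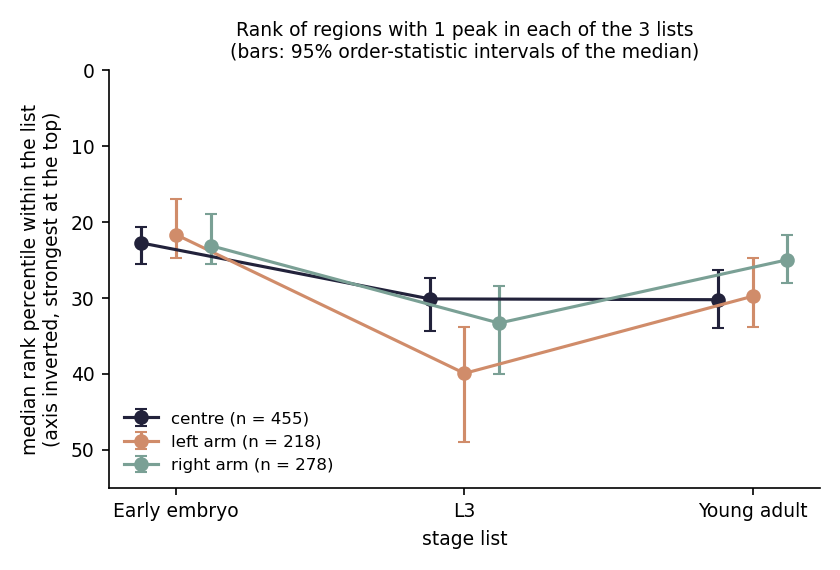
Median rank percentile in each stage list, with 95% order-statistic intervals, of the regions with exactly 1 peak in each of the 3 lists, for the centre, the left arm and the right arm. The axis is inverted, with strong peaks at the top. The centre's median is 30.1 in L3 and 30.2 in young adults, while both arms' medians stand higher on the plot in young adults than in L3.

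The same split appeared on the other autosomes, cut at the same fractions of their lengths. They come from the same pooled lists, so this was no independent repeat. The difference in the share ranked higher in young adults than in L3, centre minus arms, was −12.1 points on chromosome I, −21.1 on II, −11.6 on IV and −20.1 on V, and all 4 intervals lay below 0. Ranked by fold the values were −2.55, −11.4, −6.01 and −12.4 points, with intervals that took in 0 on I and IV. The L3 rank difference also had the same sign on each, at −7.75, −5.64, −7.60 and −11.3 points. In the early embryo the rank difference was above 0 on I, II and IV, as on III, at 1.86, 4.46 and 3.78 points. It was −1.36 points on V. With full lists and both arms together, chromosome III stood apart in the density of its early embryo peaks. The ratio of centre to arms was 1.19 on III and 0.918, 0.930, 0.978 and 0.982 on I, II, IV and V. The upper limits of these 4 were 0.974, 0.985, 1.04 and 1.04, all below the lower limit on III, 1.11. On III the ratio was 1.04 with equal list lengths and 1.03 against the right arm alone, which were not computed for the others. In L3 the ratio on III, 1.17, lay between 1.03 on I and 1.49 on V. The share of early embryo peaks without a counterpart, higher in the centre than in the arms on III, was lower there on I, II and V. It was 47.9% against 50.1% on I, 51.6% against 54.3% on II and 46.8% against 55.4% on V. On IV it was 48.4% against 47.3%.

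The strongest members recurred between lists. The 5 highest folds of each list, 15 peaks in all, belonged to 12 sites, and each of the 12 had peaks in all 3 lists. Of the 100 highest folds per list in the centre, 76 regions were common to L3 and young adult, 52 to early embryo and L3, 46 to early embryo and young adult, and 45 to all 3.

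One site was among the 5 highest folds of every list. It lay from 6279942 to 6280528 in the early embryo list (fold enrichment 10.0, rank 13 of 27694), from 6279910 to 6280667 in L3 (14.4, rank 17 of 13040) and from 6279942 to 6280528 in young adults (13.8, rank 39 of 15159). The early embryo list also had a weak peak of fold 1.65 at its right edge, from 6280533 to 6280686, which the wider L3 peak took in. A second site, from 8425065 to 8425486, had the highest L3 fold of the centre, 15.0, and folds of 8.43 in the early embryo and 14.3 in young adults.

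Other strong sites stood highest in young adults alone, or much higher in both later lists than in the early embryo. The highest young adult fold of the centre, 16.8 (percentile 0.752), lay from 9716955 to 9717654. There L3 had 10.1 (percentile 6.33) and the early embryo 5.14 (percentile 5.21). The second, 15.3 (percentile 1.17), lay from 5653723 to 5654133. There L3 had 9.05 (percentile 8.28) and the early embryo 3.67 (percentile 11.3). The site from 4551881 to 4552450 had a fold of 12.8 in L3 (percentile 1.61) and 13.1 in young adults (percentile 1.54). In the early embryo it was occupied by 2 touching peaks with folds of 2.09 and 2.70, at percentiles 55.2 and 26.5. It was thus the site of the 12 that was weakest in the early embryo relative to the later lists.

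The highest early embryo folds after the first site were 9.14, 8.69, 8.64 and 8.50. They lay from 8874017 to 8874567, from 5285730 to 5286118, from 9175929 to 9176338 and from 3915719 to 3916100. In L3 the remaining sites lay from 4666548 to 4667494 (12.7) and from 3820128 to 3820659 (12.6). In young adults the one not yet named lay from 10270671 to 10271080 (14.3). None of these has a gene name here, because no annotation of ce10 was used.

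The 9 widest peaks, 3 per list, fell on 4 sites. The widest L3 peak, 947 bp, began at 4666548, as did a young adult peak of 933 bp and an early embryo peak of 665 bp that was followed by a second peak of 307 bp. The widest early embryo peak, 864 bp, lay from 8417130 to 8417993, and the widest young adult peak, 935 bp, from 8417059 to 8417993. In L3 that site was divided into 3 touching peaks of 463, 176 and 420 bp, so the width there depended on where summits were called. The site near 8865136 was 857 bp wide in the early embryo list, against 816 bp in the L3 list and 907 bp in young adults, and the last, from 5031149 to 5031985, had 837 bp in L3.

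The strongest member found in a single stage was an early embryo peak from 8604988 to 8605397, whose fold enrichment was 7.35, at rank 429 of 27694. It lies within the longest stretch of the centre without young adult peaks. The next early embryo peaks without a counterpart had folds of 5.23 (9118305 to 9118719), 5.01 (9247196 to 9247518), 4.38 (5844837 to 5845061) and 4.34 (3831326 to 3831589). All 5 were in the strongest 10% of their list, with percentiles of 1.55 to 6.74.

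The single-stage peaks of the later lists were weaker by rank. In L3 the first 2 were neighbours, from 6797974 to 6798162 and from 6798165 to 6798416, with folds of 5.52 and 5.45 and ranks 2662 and 2742 of 13040. They lie shortly after the 40.7 kb stretch without summits in any list. The others, at 10203171, 5078129 and 6117690, had folds of 4.83, 4.12 and 4.07. In young adults the highest fold was 5.29, from 10133049 to 10133395, rank 2524 of 15159, and the next 4, at 6116529, 8069129, 9565984 and 8639127, had 4.91, 4.91, 4.47 and 4.32. Peaks found in L3 alone and in young adults alone thus lay within 2 kb of each other near 6.1 Mb, at 6117690 and 6116529.

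Some regions open in all stages moved far within the lists. From the early embryo to L3 the largest rise was at 4063653 to 4064212, at percentile 96.2 in the early embryo and 9.82 in L3, with folds of 1.55 and 8.32, and it kept a fold of 5.26 in young adults. The next were at 3953129 (fold 1.73 in the early embryo and 8.35 in L3) and 8287526 (1.54 and 5.27). The largest fall was at 4274516 to 4275151, at percentile 2.55 in the early embryo (fold 4.14), 81.4 in L3 (2.08) and 96.9 in young adults (1.74). The falls at 7344894 and 6249760 were to percentiles of 81.8 and 95.3 in L3, from peaks with early embryo folds of 5.99 and 2.93.

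From L3 to young adults the largest rises were at 4489648, 6374063 and 10271192. The site at 6374063 to 6374297 had an early embryo fold of 1.56, an L3 fold of 2.07 and a young adult fold of 4.17, at percentiles 88.7, 79.0 and 12.4, so that it stood higher at each later stage. The largest fall was at 6742536 to 6742903, with folds of 3.38, 5.53 and 2.24 and percentiles of 14.9, 22.5 and 80.4. The falls at 9346075 and 8493137 ended at percentiles 91.1 and 88.9. Of all 533 regions, 183 (34.3%) ranked higher in L3 than in the early embryo and 295 (55.3%) higher in young adults than in L3. These shares also depend on list length, by which ranks were divided, and the early embryo list was the longest. Equal list lengths were not tried for these regions, so the shares do not show whether sites gained or lost accessibility.

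The hlh-11 region, whose listed span is that of its L3 peaks, held 2 touching peaks in L3 and in young adults and 2 separate ones in the early embryo. The study chose it and the gei-13 region from these same samples, so their differences between stages are no independent evidence. In L3 the first peak, 569 bp, ranked 16 of 13040 with a fold enrichment of 11.9, and the second, 384 bp, ranked 136 with 8.18. In young adults the folds were 11.6 (rank 24 of 15159) and 7.49 (rank 188). In the early embryo they were 2.30 (rank 9956 of 27694) and 2.04 (rank 14300). By −log10 q the first L3 peak ranked above every other L3 peak of the centre, and the first young adult peak above every other young adult peak.

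The surroundings of hlh-11 were emptier in L3 than in the early embryo. Within 15 kb on each side of the region L3 had no other peak and young adults had 2 weak touching ones near 9630766 (folds 2.1 and 2.20). The early embryo, whose list is the longest and deepest, had 6 with folds of 1.56 to 2.84. None of the 6 had a counterpart, but only the young adult pair could have been one, and 50.9% of all early embryo peaks have none. In the gene table of another build, WBcel235, used for order only, hlh-11 lies between hcp-3, which encodes the centromeric histone, and tbg-1, which encodes gamma-tubulin. The protein-coding genes between hlh-11 and gei-13 there are tbg-1, rpac-19, which encodes a subunit shared by RNA polymerases I and III, and ubc-7, which encodes a ubiquitin-conjugating enzyme.

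The gei-13 region had peaks in the early embryo and L3 lists. It held an early embryo peak of 204 bp from 9646368 to 9646571, fold enrichment 1.89 (rank 19271 of 27694), and an L3 peak of 332 bp with a fold of 2.67 (rank 7698 of 13040). No young adult peak overlapped it. In the wider window that the study plotted, from 9631922 to 9651010, the early embryo had 14 peaks, L3 9 and young adults 4. The strongest there were an early embryo peak of fold 2.69 at 9641954, an L3 peak of 4.01 at 9640956 and a young adult peak of 4.17 at 9638114, and the last of these joined 2 L3 peaks into 1 of 555 bp.

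Just inside the left border the early embryo, L3 and young adult peaks had folds of 1.46, 2.26 and 3.40, and just outside it 1.75, 2.89 and 3.32. Just inside the right border they had folds of 2.97, 4.35 and 3.64, and just outside it 2.74, 1.88 and 2.00. The deposited peak names run in genome order and skip numbers. Of the early embryo numbers in the centre 57.9% were present, against 60.2% in the left arm and 64.6% in the right arm. In L3 these were 43.4%, 42.2% and 44.3%, and in young adults 40.9%, 41.4% and 43.7%. The early embryo share was thus lowest in the centre, where its peaks were densest, and the part of this in the densities was not tested.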

How the data were processed

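ATAC-seq libraries of 3 stages were sequenced in 3 replicates each, and read depth per library was not computed here. The study's methods and the processing notes state that the authors aligned reads to ce10 (Bowtie2 2.1.0), removed duplicates (Picard), ran MACS with a q threshold of 0.05, divided peaks midway between summits, pooled replicates and removed input and blacklisted regions. The authors' fold enrichment is signal over surrounding background, and the authors' −log10 q rises with depth, so ranks were taken within a list, and folds of different lists were set side by side, or compared between centre and arms at shared regions, only as descriptions. Here summits were assigned to the centre, the left arm (below 3.72 Mb) or the right arm (from 10.34 Mb to the largest peak end, 13772807). Shares have Clopper-Pearson, differences of shares Newcombe, densities exact Poisson and medians order-statistic 95% intervals. Intervals for differences or ratios of medians combine the limits of both medians. Distances spanning the left-out window were not counted.

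Named were, per list, the 5 highest folds, the 5 highest folds without a counterpart and the 3 widest peaks, the 3 densest 100 kb blocks, the longest empty stretches, the 3 largest rises and falls in rank per step, the cloned regions and the border peaks. The sparsest blocks were added after seeing their values, as was the comparison of always-open regions between centre and arms. Members and lists were chosen with earlier results of these data known. Both gene names looked up matched. Overlaps were checked against bedtools 2.31.1 (0 peaks differed over 6 ordered pairs) and on simulated lists of 5905 peaks (0 wrong calls). Python 3.11.15, numpy 2.4.6, scipy 1.17.1, pandas 2.3.3 and matplotlib 3.10.9 were used. Alternatives changed the minimum −log10 q (2 or 5), overlap, list length, borders, window, joining and arm.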

Additional observations from a re-analysis of the deposited data

Results flagged for a closer look

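Centre peaks differed from arm peaks in opposite directions in 2 stages. Their median rank percentile was 5.71 points above that of the arms in the early embryo, which means weaker peaks, and −5.79 points from it in L3, which means stronger ones. The same opposite signs were found on chromosomes I, II and IV, with early embryo values of 1.86, 4.46 and 3.78 points and L3 values of −7.75, −5.64 and −7.60. On V both were negative, at −1.36 and −11.3 points. The pattern was thus not particular to chromosome III. With 1 pooled list per stage the difference between the stages was not tested. The early embryo value turned to −2.55 points (−6.68 to 2.49) with lists of equal length. The L3 value was −0.29 points with ranks by fold, or −3.43 points (−8.81 to 3.09) against the right arm alone.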

How the results depend on the processing

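Of 102 recomputed values, 90 stayed within the 95% interval of the value reported, 10 moved out of it and 2 reversed, where only a value whose interval left out no difference could count as reversed. Some of the 90 could not move. The L3 list is itself the one of 13040 peaks, so its density, width, rank and spacing were the same values at equal list length. A minimum −log10 q of 2 removed no centre peak and left the density ratios unchanged. With lists of equal length by −log10 q, the 13040 strongest early embryo peaks alone were counted, and the density ratio was 1.04. The early embryo width difference changed sign to 1.0 bp (−14.7 to 15.1) and the rank difference to −2.55 points (−6.68 to 2.49). Both count as reversed, although both intervals held 0. The rank alternative was chosen after seeing the data. Against the left arm alone the density ratios were 1.37, 1.35 and 1.2 in the early embryo, L3 and young adults, and against the right arm alone 1.03, 1.03 and 0.930. With equal lengths by fold the L3 difference in peaks found in 1 stage was 5.07 points (1.42 to 8.70) and that of the early embryo 2.29 (−2.03 to 6.62). Ranked by fold, the L3 rank difference was −0.29 points, and against the right arm alone −3.43. With touching peaks joined, the young adult width difference, 3.0 bp with an interval around 0, was −17.5 bp (−33.9 to −1.59). For the last 3 the cause was not tested. The always-open regions were compared after seeing the data, and ranking by fold or taking 1 arm left that difference between −8.53 and −15.0 points. No paired analysis was possible because replicates were pooled into 1 list per stage, and for the same reason no replicate could be left out. A −log10 q minimum removed few peaks, with 1985, 945 and 1064 centre peaks left at a minimum of 5. Depth limits what absence from the L3 or young adult list can mean.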
